A study of Mus musculus with 6 samples.

Results

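The genes described here are *Hdc*, which encodes the enzyme that makes histamine, and 9 genes that mast cells and basophils use, namely *Kit*, *Cpa3*, *Mcpt4*, *Cma1*, *Ms4a2*, *Fcer1a*, *Fcer1g*, *Gata2* and *Slc18a2*. *Hdc* was picked because its value was far higher in *Yap* mutant than in control lungs, and the other 9 were picked to ask whether genes of histamine-storing cells were higher with it. All 10 genes had a locus of their own among the 24402 loci of the authors' table. Because the list was chosen on the comparison of the 2 genotypes, every value below is a description without a test.

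Whole lungs of C57BL/6 mouse embryos at 12.5 dpc (days post coitus) were sequenced as 6 RNA libraries, 3 from wild-type embryos (control) and 3 from littermates of the genotype Yap-flox/flox; Shh-Cre/+ (*Yap* mutant). In the mutants, Cre recombinase made from the *Shh* locus removes a floxed part of *Yap* in the lung epithelium and leaves *Yap* intact in the mesenchyme. The mutants also differ from the controls by carrying Cre and by having it inserted in a *Shh* allele, so these changes cannot be told apart from the loss of *Yap*. The table gives 1 FPKM value (fragments normalised for transcript length and library size) for each genotype, which the authors' software summarised over the 3 libraries. The spread between embryos cannot be seen in these values, and no difference below was checked against replicates. The authors' own p-values were not used. The labels do not say whether a library came from a single embryo or from several. In whole-lung RNA, fewer cells of a type and less RNA per cell cannot be told apart.

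Mast cells and basophils are blood cells that store histamine in granules and release it when antigen binds to the IgE on their surface. Histamine is made from the amino acid histidine by histidine decarboxylase, the product of *Hdc*, and is packed into granules by the vesicular monoamine transporter encoded by *Slc18a2*. Connective tissue mast cells are recognised by granule proteases such as carboxypeptidase A3 (*Cpa3*) and the chymases (*Mcpt4* and *Cma1*), and both cell types carry the high-affinity IgE receptor, built from the products of *Fcer1a*, *Ms4a2* and *Fcer1g*. Histamine is also made outside these cells, among others by the enterochromaffin-like cells of the stomach and by neurons of the hypothalamus.

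In the whole data set, *Yap1* had 76.1 FPKM in controls and 65.6 FPKM in *Yap* mutants, a value that covers the whole locus and all cells of the lung. *Nkx2-1*, a transcription factor that defines the lung epithelium, had 61.9 and 35.9 FPKM. Of 4 Y-linked genes (*Ddx3y*, *Eif2s3y*, *Kdm5d*, *Uty*), none exceeded 0.0163 FPKM in controls and all reached 4.61 to 16.5 FPKM in *Yap* mutants. The sex make-up of the groups therefore differed along with genotype. The part of embryo sex in the values below cannot be told apart from that of genotype and was not tested. Among single-transcript genes with very low values, FPKM multiplied by transcript length clustered at 0.0203 in control and 0.0205 in *Yap* mutant lungs, and again at 0.0404 and 0.0411. If the lower cluster is what 1 fragment adds, each group value rests on about 49200000 (control) and 48800000 (*Yap* mutant) fragments, and this was used to convert FPKM into approximate fragments below.

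The promoter of *Hdc* is shown first, since it belongs to the gene with by far the largest difference, with those of *Cpa3* and *Kit*, the members next in the size of the log2 ratio of FPKM + 0.1, the scale used below. Each sequence is the 250 bases before the RefSeq transcript start on GRCm38.p6, written 5′ to 3′ on the gene's own strand, for *Hdc* from chr2:126618679-126618928 (minus strand), for *Cpa3* from chr3:20242182-20242431 (minus strand) and for *Kit* from chr5:75574737-75574986 (plus strand). Capitals mark matches to a GATA core (AGATAA or AGATAG, as well as TGATAA or TGATAG) or to a GC box (GGGCGG) on either strand.
Hdc: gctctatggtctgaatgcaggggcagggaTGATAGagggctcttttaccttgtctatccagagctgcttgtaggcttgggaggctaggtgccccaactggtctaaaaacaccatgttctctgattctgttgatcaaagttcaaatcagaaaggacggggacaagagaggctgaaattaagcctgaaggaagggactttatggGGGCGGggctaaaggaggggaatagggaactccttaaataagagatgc
Cpa3: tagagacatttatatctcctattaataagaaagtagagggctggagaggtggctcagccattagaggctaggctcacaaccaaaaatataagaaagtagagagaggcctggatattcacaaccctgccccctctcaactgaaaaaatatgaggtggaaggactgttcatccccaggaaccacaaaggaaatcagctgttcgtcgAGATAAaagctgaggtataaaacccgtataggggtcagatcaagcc
Kit: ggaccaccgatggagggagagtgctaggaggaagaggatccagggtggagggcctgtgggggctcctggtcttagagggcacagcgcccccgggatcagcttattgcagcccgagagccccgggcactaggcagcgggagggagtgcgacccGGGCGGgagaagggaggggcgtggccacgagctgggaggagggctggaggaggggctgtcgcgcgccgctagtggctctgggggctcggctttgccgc
GATA cores are the letters that GATA factors, *Gata2* among them, prefer, and the GC box is preferred by Sp1-like factors. The *Hdc* promoter held a GATA core that began 221 bases before the start and a GC box that began 48 bases before it. The *Cpa3* promoter held a GATA core 46 bases before the start, and the *Kit* promoter held a GC box 98 bases before it and no GATA core. All 10 members matched the promoter table, with 12 windows of 300 bases that also take in the first 50 bases of the transcript. A GATA core was present for 7 of the 10 members, which besides *Hdc* and *Cpa3* were *Mcpt4*, *Cma1*, *Ms4a2*, *Fcer1a* and *Slc18a2*. Counted by window, 7 of these 12 held it, against 29.8% of all 32851 windows. A GC box was present for 4 members, *Hdc*, *Kit*, *Gata2* and *Slc18a2*, in 6 of the 12 windows, against 35.7% of all windows. Both of these motifs were chosen after values were seen. The stricter GATA motif GATAAG, which can overlap a core, was found for *Mcpt4* and *Ms4a2* (7.44% of all windows), the TEAD motif GGAATG for *Gata2* alone (14.7%), and the MITF E-box CACGTG for no member (7.15%). TEAD proteins are the DNA-binding partners of YAP, and the letters of their motif were not in the 300-base window of *Hdc*. A match or its absence in these windows says nothing of whether a factor binds there.

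*Hdc* had 0.489 FPKM in controls and 64.1 FPKM in *Yap* mutants. The ratio of the 2 values was 131, and the log2 ratio, taken here and below of FPKM + 0.1 so that values near 0 do not dominate, was 6.77. In approximate fragments this is 57.5 against 7475, and an approximate 95% interval of the ratio that covers counting error only reached from 101 to 170. In controls 42.4% of all loci had a lower value than *Hdc*, and in *Yap* mutants 94.7% did. Among the 12716 loci averaging at least 1 FPKM over the 2 groups, 5 had a higher log2 ratio. These 5 were *Eif2s3y* on the Y chromosome, an unnamed locus on chromosome 10 and the small RNA loci *Mir3096*, *Snora28* and *Scarna3a*, and each had less than 0.1 FPKM in control lungs. Of the 16351 loci with at least 0.1 FPKM in control lungs, 0 had a higher ratio than *Hdc*. Since *Hdc* was picked for this difference, its place at the top is no independent result.

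**Figure D1:**
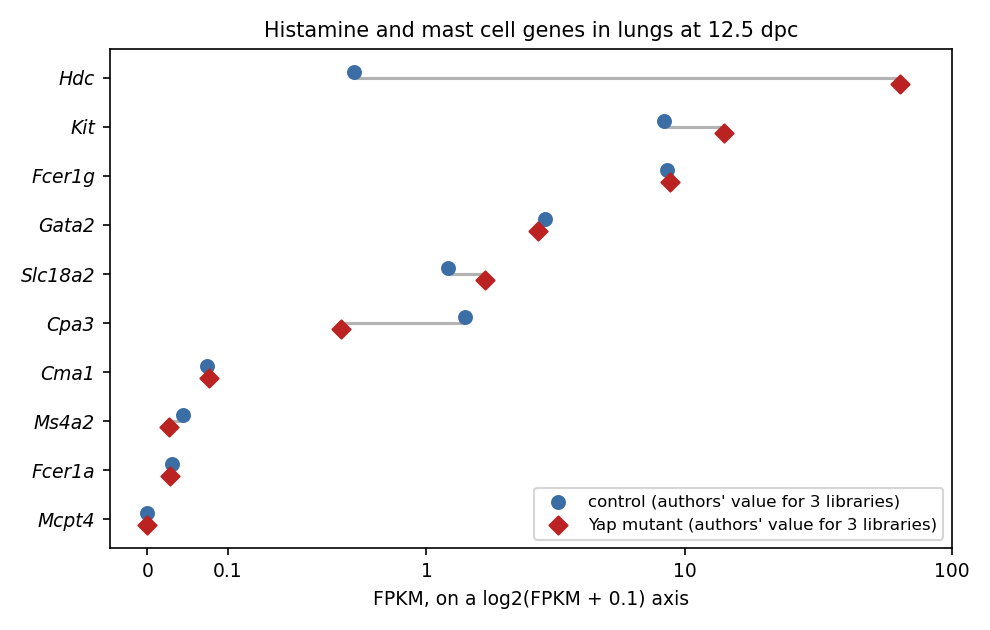
FPKM of the 10 histamine and mast cell genes on a log2(FPKM + 0.1) axis, with a circle for the authors' control value and a diamond for the authors' *Yap* mutant value, each over 3 libraries, joined by a grey line. *Hdc* runs from 0.489 to 64.1 FPKM, *Cpa3* runs the other way from 1.43 to 0.426 FPKM, and the 4 genes at the bottom lie under 0.1 FPKM in both groups.

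The *Hdc* locus lies on chromosome 2 from 126593668 to 126618665 on the minus strand (mm10), and its protein-coding transcript has 12 exons and 2392 bases. None of the 2343 windows of 50 bases in this transcript occurs in a transcript of another gene (0%), so the reads of *Hdc* can be told from those of its relatives. The genes beside it did not share its difference. *Slc27a2*, a fatty acid transporter gene 1.98 kb away on the side of the lower coordinates, had 0.522 FPKM in controls and 0.469 FPKM in *Yap* mutants. *Gabpb1*, a transcription factor gene 10.2 kb away on the other side, had 27.3 and 24.8 FPKM. Further out, *Usp8* had 20.3 FPKM in both groups, *Dtwd1* had 7.21 and 7.77 FPKM, *Atp8b4* had 0.0255 and 0.0192 FPKM, and *Usp50* was listed at 0 in both. The log2 ratios of the 31 other loci above 0 within 1000 kb of *Hdc* lay between -0.15 and 0.66, with a median of 0.04.

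**Figure D2:**
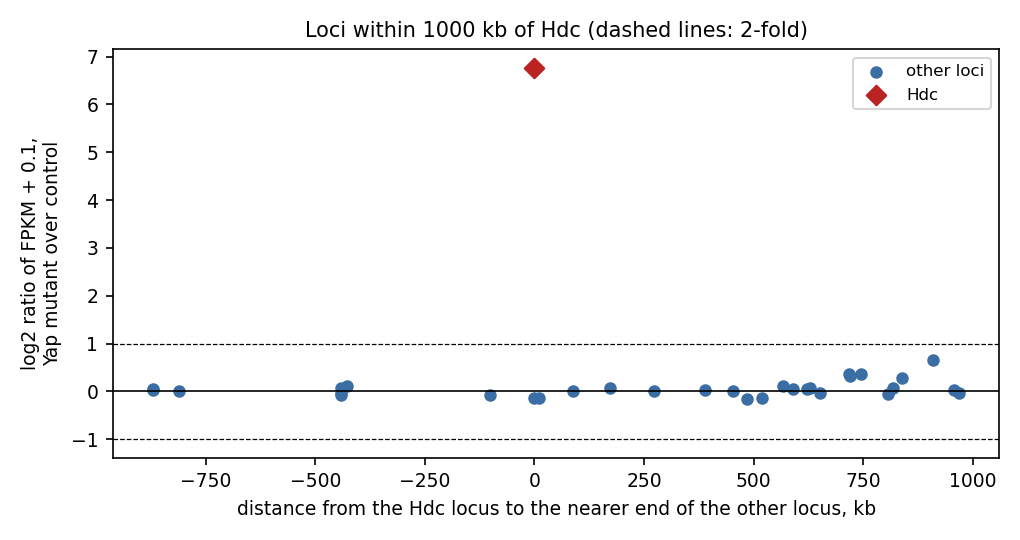
Log2 ratio of FPKM + 0.1 (*Yap* mutant over control) of the loci within 1000 kb of *Hdc*, against their distance from the *Hdc* locus in kb. *Hdc*, the diamond at 6.77, stands alone, and the 31 other loci lie between -0.15 and 0.66, all inside the dashed lines that mark a 2-fold difference.

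Across the 10 members, 1 gene (*Hdc*) was at least 2-fold higher and 1 gene (*Cpa3*) was at least 2-fold lower in *Yap* mutant lungs on this scale. Over all 19376 loci above 0 in either group, the shares at least 2-fold higher and at least 2-fold lower were 3.61% and 2.02%. The counts in the lists below are set against the same shares. The other 8 members lay inside the 2-fold lines. With 0.1 FPKM added to each value, a gene under 0.1 FPKM in both groups cannot lie outside these lines, here or in the lists below. Among the members this holds for *Mcpt4*, *Cma1*, *Ms4a2* and *Fcer1a*. The median log2 ratio of the 9 members above 0 was 0.03, beside 0.00 over all loci above 0. At an average of at least 1 FPKM required, 5 members remained (*Hdc*, *Kit*, *Fcer1g*, *Gata2* and *Slc18a2*), of which *Hdc* passed only through the mutant value, and 2.15% of the 12716 loci were at least 2-fold higher and 1.28% at least 2-fold lower.

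**Figure D3:**
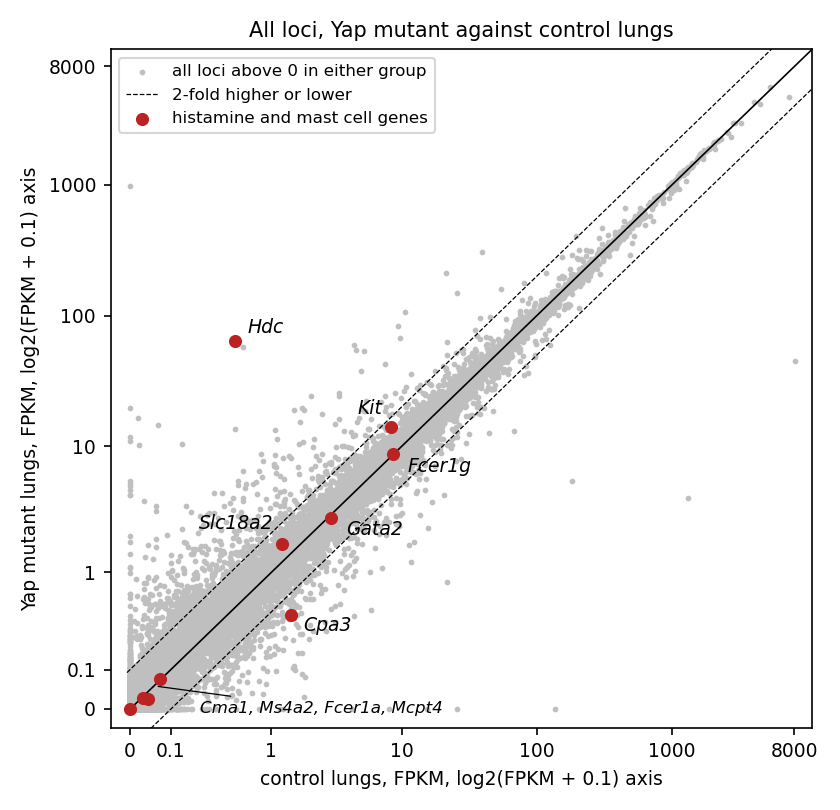
FPKM in *Yap* mutants (vertical axis) against control lungs (horizontal axis), both on log2(FPKM + 0.1) axes, for all 19376 loci above 0 in either group (grey) and the 10 members (red). Only *Hdc* and *Cpa3* among the members lie outside the dashed 2-fold lines, on opposite sides. The 4 members in the corner near 0 are too low to cross the lines on this scale.

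The granule proteases of mast cells were low or undetected in both groups. *Cpa3* had 1.43 FPKM in controls and 0.426 FPKM in *Yap* mutants, which is about 102 against 30.1 fragments. Its log2 ratio was -1.54, opposite in direction to that of *Hdc*, and with a pseudocount of 1 FPKM it was -0.77, inside the 2-fold line. The ratio of *Yap* mutant to control was 0.297, with a counting interval from 0.198 to 0.446. *Cpa3* lies on chromosome 3 from 20215616 to 20242181, has 11 exons and shares no 50-base window with another gene (0%). *Cma1*, a chymase gene on chromosome 14 from 55941451 to 55944661, had 0.0673 and 0.0704 FPKM, about 3.61 and 3.74 fragments. *Mcpt4*, a chymase gene of the same cluster from 56059744 to 56062310, was listed at 0 in both groups. Transcripts of *Mcpt4* share 5.48% of their 50-base windows with the related *Cma2* and *Mcpt9*, which were also listed at 0. *Cma1* shares 5.38% of its windows with *Gm48934*.

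Of the 3 chains of the IgE receptor, the 2 that are restricted to few cell types were near 0. *Fcer1a*, the chain that binds IgE (chromosome 1, 173221271 to 173227229), had 0.0235 FPKM in controls and 0.0218 FPKM in *Yap* mutants, which is about 1.15 and 1.06 fragments. *Ms4a2*, the beta chain (chromosome 19, 11615521 to 11623719), had 0.0362 and 0.0201 FPKM, about 4.26 and 2.34 fragments. *Ms4a2* shares 2.69% of its windows with *Ms4a4b*. At this depth a difference in either gene was not detectable. *Fcer1g*, the gamma chain (chromosome 1, 171229572 to 171234349), had 8.58 and 8.79 FPKM, a log2 ratio of 0.03. This chain also serves the IgG receptors of macrophages, and *Fcer1g* is itself among the 16 macrophage genes listed, whose means over both groups ran from 0.302 FPKM (*Itgam*) to 12.8 FPKM (*C1qb*). *C1qb*, *Tyrobp* and *C1qc*, the macrophage genes with the highest means, had 12.02, 10.3 and 8.84 FPKM in controls and 13.6, 10.5 and 9.84 FPKM in *Yap* mutants. All 16 macrophage genes of the list were inside the 2-fold lines (0 at least 2-fold higher, 0 at least 2-fold lower), with a median log2 ratio of 0.11. The part of macrophages in the value of *Fcer1g* was not tested.

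*Kit*, *Gata2* and *Slc18a2* are used by mast cells but also by other cells. *Kit* encodes the receptor for stem cell factor, which mast cells, blood progenitors, melanocytes and germ cells need. It lies on chromosome 5 from 75574987 to 75656721 and had 8.35 FPKM in controls and 14.1 FPKM in *Yap* mutants, about 2150 and 3604 fragments. Its log2 ratio was 0.75, its ratio 1.69 (counting interval 1.60 to 1.78), and 3.11% of the 12716 loci averaging at least 1 FPKM had a higher log2 ratio. *Kitl*, which encodes the ligand, had 16.4 and 18.3 FPKM.

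*Slc18a2* (chromosome 19, locus 59260878 to 59345849, a stretch it shares with *Pdzd8*) had 1.22 and 1.72 FPKM, a log2 ratio of 0.46 and a counting interval of the ratio from 1.18 to 1.66. The transporter that loads histamine into vesicles thus differed by a ratio of 1.40 where the enzyme that makes histamine differed by 131. *Gata2*, a transcription factor of blood progenitors, mast cells and endothelium (chromosome 6, 88198664 to 88207032), had 2.96 and 2.77 FPKM, a log2 ratio of -0.09, and its counting interval reached from 0.826 to 1.06. These intervals leave out the variation between embryos.

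The histamine pathway beyond *Hdc* was present at low levels in both groups. Of the 12 listed genes for synthesis, storage, transport, breakdown and receptors, *Hdc* alone was at least 2-fold higher, and 0 were at least 2-fold lower. The 6 of them under 0.1 FPKM in both groups could not reach a 2-fold difference on this scale. *Hnmt*, which inactivates histamine by methylation, had 0.411 FPKM in controls and 0.557 FPKM in *Yap* mutants. *Aoc1*, the diamine oxidase gene, had 0.00601 FPKM in controls and was listed at 0 in *Yap* mutant lungs. *Maob*, which acts on the methylated product, had 2.24 and 2.73 FPKM. The transporter *Slc29a4*, which takes up monoamines and histamine, had 4.42 and 3.17 FPKM.

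For the histamine receptors, the values lay at or under 0.0479 FPKM. *Hrh1* had 0.00482 FPKM in controls and 0.0479 FPKM in *Yap* mutants, *Hrh2* had 0.0132 and 0.00624 FPKM, *Hrh3* had 0.0312 and 0.00760 FPKM, and *Hrh4* was listed at 0 in both. Without *Hdc*, the median log2 ratio of the 10 other genes of this list above 0 was 0.10.

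The decarboxylases related to *Hdc* include *Ddc*, which makes dopamine, serotonin and other amines from aromatic amino acids. *Ddc* had 8.30 FPKM in controls and 20.7 FPKM in *Yap* mutants, a log2 ratio of 1.31. *Gad1*, which makes the transmitter GABA from glutamate, had 0.110 and 0.865 FPKM. *Csad*, an enzyme of taurine synthesis, had 12.6 and 13.9 FPKM. *Gadl1* and *Gad2*, the latter the other gene for a GABA-making enzyme, were low, at 0.0444 and 0.00372 FPKM in controls and 0.138 and 0.0225 FPKM in *Yap* mutants. Of the 6 genes of this family 3 were at least 2-fold higher, namely *Gad1*, *Ddc* and *Hdc*, which was picked for its difference, beside 3.61% of all loci above 0. Without *Hdc*, the median log2 ratio of the other 5 genes was 0.72.

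The wider lists of mast cell and basophil genes held mostly genes near 0. Of 20 mast cell genes, 14 were under 0.1 FPKM in both groups and 8 of these were listed at 0. With 0.1 FPKM added to each value, these 14 could not reach a 2-fold difference, and their log2 ratios are drawn towards 0. None of the 20 (0) was at least 2-fold higher, *Cpa3* was at least 2-fold lower, and the median log2 ratio of the 12 genes above 0 was -0.08. *Hpgds*, a prostaglandin D2 synthase gene, had 2.38 FPKM in controls and 1.45 FPKM in *Yap* mutants, and *Rab27b*, which helps granule release, had 0.966 and 0.972 FPKM. The summed FPKM of the list was 14.1 in control and 17.7 in *Yap* mutant lungs, and most of it was *Kit*.

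Among 9 basophil genes, 7 were under 0.1 FPKM in both groups and could not reach a 2-fold difference on this scale. The basophil protease gene *Mcpt8* had 0.0794 and 0.0267 FPKM. *Itga2*, an integrin gene that many cell types use, had 3.15 and 6.67 FPKM and was the only basophil gene at least 2-fold higher, with a log2 ratio of 1.06. *Il3ra*, which encodes a chain of the interleukin-3 receptor, had 3.47 and 4.19 FPKM. The median log2 ratio of the 7 basophil genes above 0 was -0.02.

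Signalling genes below the IgE receptor and Kit differed little. Of 14 IgE receptor and signalling genes, 0 were at least 2-fold higher or lower, with a median log2 ratio of -0.01. The phospholipase gene *Plcg1* had 35.2 FPKM in controls and 33.7 FPKM in *Yap* mutants, and the kinase gene *Fyn* had 24.96 and 24.3 FPKM. Of 13 Kit signalling genes, 0 were at least 2-fold higher or lower, and the median was 0.13. The adaptor genes *Shc1* and *Grb2* had 73.9 and 36.9 FPKM in controls and 74.3 and 36.4 FPKM in *Yap* mutants, and the phosphatase gene *Ptpn11* had 45.3 and 42.6 FPKM.

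Among 10 transcription factors that mast cells share with other lineages, 2 were at least 2-fold higher, beside 3.61% of all loci above 0. *Cebpa*, a factor of myeloid cells that also acts in lung and liver epithelium, had 4.62 FPKM in controls and 15.3 FPKM in *Yap* mutants (log2 ratio 1.71). *Mitf*, which mast cells and melanocytes need, had 0.756 and 2.28 FPKM (log2 ratio 1.47). *Lmo2* and *Stat5b*, which act in blood cells, had 23.99 and 8.53 FPKM in controls and 25.8 and 9.50 FPKM in *Yap* mutants.

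**Figure D4:**
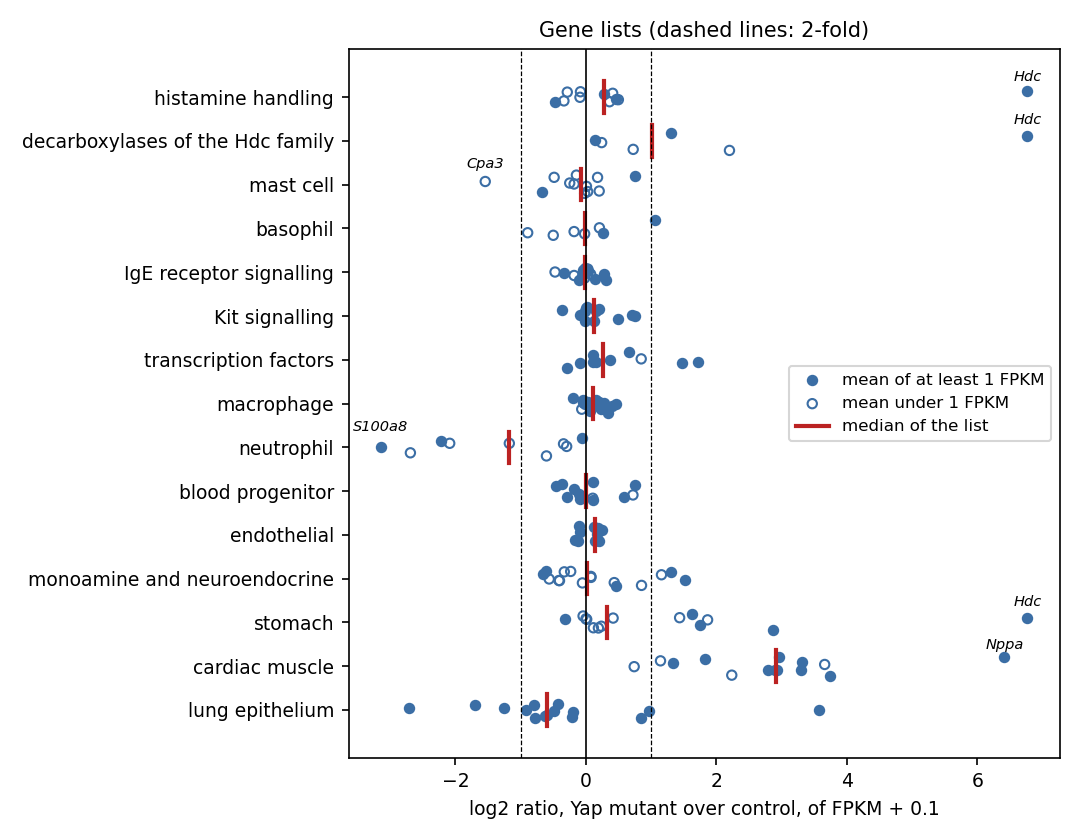
Log2 ratio of FPKM + 0.1 (*Yap* mutant over control) of the genes above 0 in each list, filled where the mean of both groups is at least 1 FPKM and open where it is lower, with a bar at the list's median. *Hdc* stands apart at 6.77 in each list that holds it, the mast cell and basophil medians are at -0.08 and -0.02, and the cardiac muscle and neutrophil medians are at 2.91 and -1.17.

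Markers of other tissues and cell types differed between the groups together with *Hdc*. Over all loci above 0, 3.61% were at least 2-fold higher and 2.02% at least 2-fold lower. Of 14 cardiac muscle genes, 13 were at least 2-fold higher in *Yap* mutants, with a median log2 ratio of 2.91. Their summed FPKM was 130.9 in control and 953.5 in *Yap* mutant lungs. *Myl7* and *Myl4*, atrial myosin light chain genes, had 39.3 and 21.3 FPKM in controls and 305.9 and 210.3 FPKM in *Yap* mutants. Of 16 stomach genes, 6 were at least 2-fold higher, *Hdc* included, and the median of the 13 genes above 0 other than *Hdc* was 0.23. *Ghrl*, the gene of the hormone ghrelin, had 1.28 and 4.52 FPKM, and *Gkn3*, which encodes a gastrokine, had 0.613 and 5.11 FPKM. The rest of these 6 were *Pgc* (0.661 and 2.25 FPKM), *Gkn2* (0 and 0.264 FPKM) and *Tff1* (0 and 0.170 FPKM).

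The stomach-specific proton pump genes *Atp4a* and *Atp4b* were under 0.1 FPKM in both groups, and the gastrin receptor gene *Cckbr* had 0.138 and 0.171 FPKM. Of 13 liver and yolk sac genes, with a median of 0.39, 4 were at least 2-fold higher, beside 3.61% of all loci above 0. These were *Afp*, the alpha-fetoprotein gene (5.42 and 22.3 FPKM), *Trf*, the transferrin gene (4.92 and 19.2 FPKM), *Ttr*, the transthyretin gene (0.492 and 13.5 FPKM), and *Apoa1*, an apolipoprotein gene (1.27 and 3.65 FPKM). Among the 5 liver genes averaging at least 1 FPKM, these 4 and *Alb*, the median was 1.94, and *Alb*, the albumin gene, had 1.28 and 1.14 FPKM. Of these 5, *Ttr* passed only through the mutant value, so this median is partly set by the filter. Lung epithelial genes had a median of -0.60, with 3 of 15 at least 2-fold lower and 1, *Sftpb* (4.55 and 55.1 FPKM), at least 2-fold higher. Over all loci above 0, the shares lower and higher were 2.02% and 3.61%. The 3 lower genes were *Shh* (15.6 and 2.31 FPKM), *Sox2* (9.65 and 2.91 FPKM) and *Etv5* (86.9 and 36.3 FPKM). An allele of *Shh* carries the Cre insertion in the mutants. The part of these tissues in the value of *Hdc* was not tested.

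Monoamine neuron and neuroendocrine genes had a median of 0.01, with 3 of 16 at least 2-fold higher, beside 3.61% of all loci above 0. These were *Ddc*, *Slc18a1*, which encodes the other vesicular monoamine transporter (0.141 and 0.438 FPKM), and *Calca*, a neuropeptide gene (1.29 and 3.88 FPKM). *Chga* and *Chgb*, granule protein genes of neuroendocrine cells, had 0.224 and 0.136 FPKM in controls and 0.484 and 0.101 FPKM in *Yap* mutants.

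Granulocyte genes were lower together with *Cpa3*. Of 11 neutrophil genes with a locus, 5 were at least 2-fold lower and 0 at least 2-fold higher, with a median of -1.17 over the 9 genes above 0. Over all loci above 0, the shares lower and higher were 2.02% and 3.61%. *S100a8* and *S100a9*, which encode the chains of calprotectin, had 4.38 and 3.67 FPKM in controls and 0.408 and 0.709 FPKM in *Yap* mutants, while the protease gene *Prtn3* had 1.54 and 1.48 FPKM. Immature granulocytes are also known to use *Hdc*, and the part of granulocytes in the values of *Hdc* and *Cpa3* was not tested.

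Blood progenitor genes had a median of 0.01, with 0 of 12 at least 2-fold higher or lower, and *Cd34*, their highest gene, had 40.1 and 35.2 FPKM. The median of the endothelial genes, which include *Gata2*, was 0.14, with 0 of 11 at least 2-fold higher or lower. Melanocyte genes, which include *Kit* and *Mitf*, had a median of 0.03, with 1 of 9 (*Mitf*) at least 2-fold higher. Of the 8 melanocyte genes above 0, 4 were higher and 4 were lower in *Yap* mutants. *Ednrb*, the highest gene of this list, and *Sox10* were lower, with log2 ratios of -0.85 and -0.34. Of the pigment cell genes in the list, *Dct* had 0.166 FPKM in controls and 0.321 FPKM in *Yap* mutants, and *Pmel* had 0.418 and 0.471 FPKM. *Tyr*, *Tyrp1* and *Mlana* were under 0.1 FPKM in both groups. The part of these cells in the values of *Kit* and *Cpa3* was not tested.

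By the distance between values on the log2(FPKM + 0.1) scale over the 2 groups, the loci with a single symbol nearest to *Hdc* were *Nppa*, *Ttr*, *Ankrd1*, *Myl1* and *Sftpa1*. *Nppa*, the gene of the atrial natriuretic peptide, had 0.581 FPKM in controls and 57.9 FPKM in *Yap* mutants and lay at a distance of 0.25. The other 4 lay at distances from 2.24 (*Ttr*) to 2.37 (*Sftpa1*). With 2 values per locus, this likeness rests on the 2 group levels alone.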

How the data were processed

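The authors' deposited table of all loci holds FPKM values that, per the labels, come from TopHat and Cuffdiff on mm10, with versions not given in the sources used here. Each locus has 1 FPKM value per genotype, which the authors made from 3 stranded paired-end libraries on the Maverix platform. The unit was read from the Cuffdiff layout. The authors' fold changes and p-values in the deposited tables were not used, nor was their table of changed loci, and values per library were not analysed here.

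Members were matched by symbol. Ratios were computed as log2(FPKM + 0.1), a difference of at least 2-fold was counted, and no test was run. Members and gene lists were chosen with earlier results of these data known. Named genes are the members, list genes at least 2-fold apart averaging at least 1 FPKM, the 3 highest of a list, the 3 loci on each side of *Hdc* and the 5 loci most like it. Other genes, the GATA core, the GC box and the fragment conversion were chosen after values were seen. Of the listed genes, 4 were found under older symbols. Lists for skeletal muscle and lymphocytes had medians of 0.20 and 0.22. Table starts count from 0, so 1 was added, and 99.5% of 20570 single-symbol loci overlapped the RefSeq gene on GRCm38.p6. Transcripts are those of GENCODE vM21 on the same build, and counting intervals were given only from 30 fragments upward. A planned comparison of proteins was not made. The scripts were tested on simulated data and ran on Python 3.11.15 with numpy 2.4.6, pandas 2.3.3 and matplotlib 3.10.9.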

Additional observations from a re-analysis of the deposited data

How the results depend on the processing

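Replicates could not be left out, and no paired analysis was possible because the table gives 1 value per genotype with no value per library, so the error between embryos remains unknown for every value.

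Among the 6 members with a counting interval, log2 ratios moved by more than counting error for 2 genes and under 1 setting. With a pseudocount of 1 FPKM, *Hdc* was at 5.45 and *Cpa3* at -0.77, so 0 members were then at least 2-fold lower. With a pseudocount of 0.01 FPKM, with median-centred ratios (a shift of 0.01) and with no pseudocount (added after seeing the data), these 6 members kept their values within counting error. The 4 members under 0.1 FPKM have no such interval. Of these, *Ms4a2* went from -0.18 to -0.62 with a pseudocount of 0.01 FPKM and to -0.85 with none, where its difference exceeds that of *Kit* (0.76), and *Mcpt4*, at 0 in both groups, then has no ratio. At 1.5-fold, 2 members were higher (*Hdc* and *Kit*), and among members averaging at least 1 FPKM 0 were lower. Of the 12716 loci averaging at least 1 FPKM, 274 were at least 2-fold higher and 163 lower. The counts were 700 and 392 with no filter, 660 and 360 averaging at least 0.1 FPKM and 565 and 420 at 1.5-fold, and 96 were lower with a pseudocount of 1 FPKM.

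List medians are given as moved when they shifted by over 0.2 on the log2 scale. Over loci averaging at least 1 FPKM they were 0.46 for the members, 1.31 for the decarboxylases, 0.66 for basophil, -2.22 for neutrophil, 0.46 for monoamine and neuroendocrine, 1.75 for stomach, 0.47 for skeletal muscle and 1.94 for liver genes. With a pseudocount of 1 FPKM they were 0.061 for histamine handling, 0.44 for the decarboxylases, -0.25 for neutrophil, 0.057 for stomach, 2.15 for cardiac muscle and 0.078 for liver genes. The basophil median over loci averaging at least 1 FPKM rests on *Itga2* and *Il3ra* alone. Some genes passed this filter through the higher group only. Through the mutant value these were *Hdc* (members, decarboxylases and stomach), *Gkn3* and *Pgc* (stomach) and *Ttr* (liver). Through the control value they were *S100a8* and *S100a9* (neutrophil) and *Myog* (skeletal muscle). A median that rests on such genes is partly set by the filter.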
